A study of Danio rerio with 4 samples.

Results

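The T-box transcription factor genes tbx2a, tbx2b, tbx3a, tbx5a and tbx20 were followed in zebrafish embryonic hearts that overexpressed Bmp2b. They were taken as every microarray probe that the platform annotation names by one of these 5 symbols, which gave 10 of the 43603 probes: 2 each for tbx2a, tbx2b and tbx5a, 3 for tbx3a and 1 for tbx20. All 5 symbols matched the current zebrafish gene table, and 8 of the 10 probes passed the filter on dim probes. The Bmp2b group (2 arrays) held hearts of Tg(hsp70l:bmp2b)fr13 embryos, in which the heat shock promoter hsp70l drives bmp2b. The WT group (2 arrays) held hearts of wild-type embryos. Embryos of both groups received the same heat shock, 30 min at 37 °C, when they were 18 hours old (hours post fertilization, hpf). Whole hearts were taken out manually between 21 and 23 hpf and combined into pools, and 200 ng of RNA per sample was amplified and labelled with Cy3. The hsp70l promoter is not specific to the heart, so the ligand was not confined to heart cells. The number of embryos in a pool, the strain and whether the groups were siblings are not given in the sources used here, nor is it stated that the arrays of a group came from separate pools. The p-values therefore measure the spread between these arrays, which may be technical.

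T-box proteins bind a shared DNA element through the domain that names the family, and in the heart they act against each other on the same target genes. Tbx5 and Tbx20, with Nkx2-5 and GATA factors, switch on genes of the working chambers, such as the natriuretic peptide gene Nppa. Tbx2 and Tbx3 occupy such sites as repressors and keep the chamber programme off in the atrioventricular canal, the ring of slow-conducting muscle between atrium and ventricle. In mouse and chick, BMP signalling switches on Tbx2 in the canal, and Tbx20 holds Tbx2 back in the chambers. The comparison of Bmp2b with WT hearts asks how genes of the early heart respond to this ligand. Here it asks how the repressors (tbx2a, tbx2b, tbx3a) and the activators (tbx5a, tbx20) did. The names repressor, activator, canal and chamber stand for known uses of the genes. Whether hearts of this age had formed a canal or chambers was not examined.

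The arrays differed in brightness. The 75th percentile of raw median intensity was 93.5 and 250 on the Bmp2b arrays and 445 and 424 on the WT arrays, and 34.1% and 46.2% of probes lay above background on the Bmp2b arrays, against 57.4% and 57.1% in WT. Background was taken as 2 times an array's 5th percentile of raw intensity. The difference between arrays of a group had a median of 0.291 log2 units for Bmp2b and 0.0611 for WT over the probes tested. On 19 bright probes with 5 spots each, the WT arrays differed by 0.0724 (root mean square of the spot means), less than the 0.124 that the spread between spots gives, while the Bmp2b arrays differed by 0.737 against 0.122. The WT arrays could thus be 1 RNA measured on 2 slides, and the calls of the T-box genes are also given with their mean counted as 1 sample. The Bmp2b arrays shared slide 3, and the WT arrays were on slides 1 and 2, so that slide and genotype cannot be told apart. The transgene's own product, bmp2b, stood at 13.74 and 14.03 on the Bmp2b arrays and at 7.86 and 8.09 on the WT arrays (normalized log2 intensity).

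Of the 5 genes, tbx3a and tbx2a were higher in Bmp2b hearts, tbx5a was lower, and tbx2b and tbx20 did not pass the test. The brightest tested probe stood for a gene, and a probe was called at an adjusted p under 0.05 (limma, Benjamini-Hochberg over the 24454 probes tested). By this rule 17.2% of all 11376 genes were called (9% higher and 8.22% lower). The same fit with the WT mean as 1 sample called 0 of the 5 genes (3 of them at an unadjusted p under 0.05), and with a variance prior that followed intensity it also called 0, where 97 of all genes passed (0.853%). Of the 38 other genes called in the gene and marker lists below, 0 passed with the WT mean as 1 sample (limma; 31 at an unadjusted p under 0.05), and 7 passed with the intensity-dependent prior: bmp2b, myh6, msx1b, msx3, fn1b, aldh1a2 and sfrp5. The limma fit with the WT mean as 1 sample passed hardly any probe of the whole array, so its 0 is not particular to the T-box genes. For the T-box genes the count was also 0 with slides treated as a random block, where 1 of all 24454 probes tested was called. For that fit a correlation of 0.5 was assumed because none could be estimated. All fits named here by the intensity-dependent prior also estimated that prior robustly (trend and robust options of limma). Their counts therefore do not come from the link to intensity alone. In bulk hearts, fewer cells of a type and less RNA per cell cannot be told apart.

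**Figure D1:**
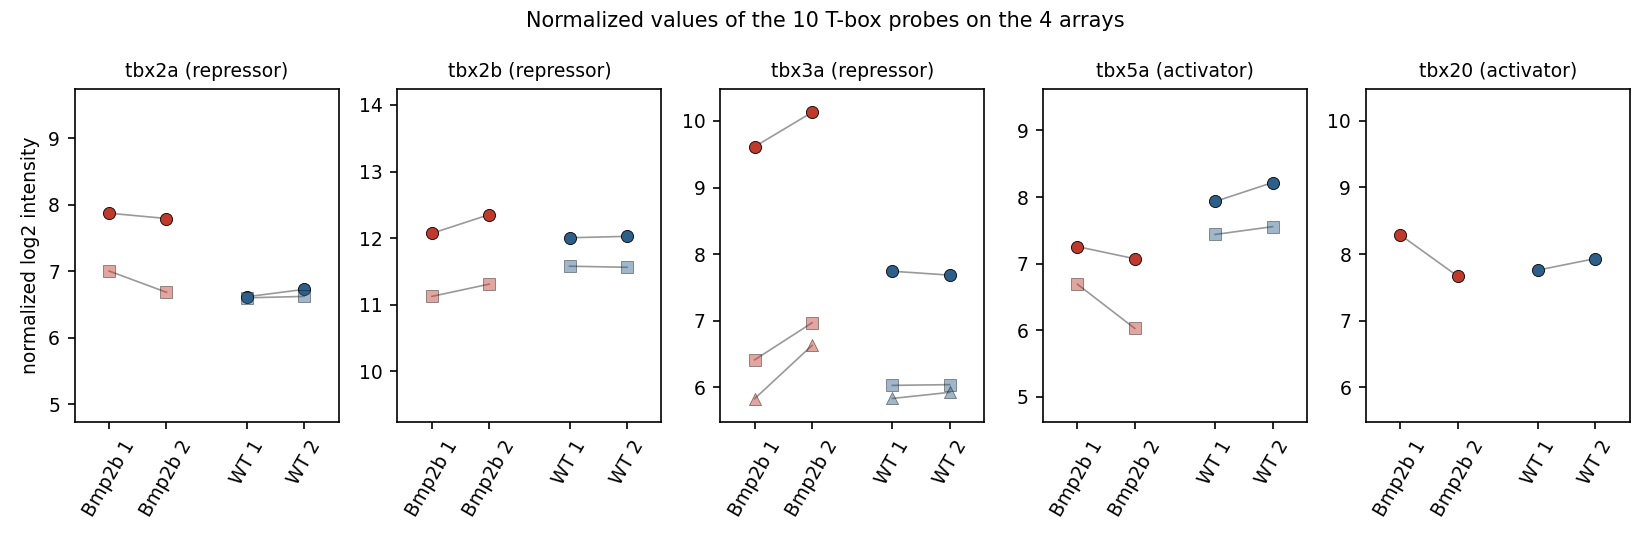
Normalized log2 intensity of the 10 T-box probes on the 2 Bmp2b arrays (red) and the 2 WT arrays (blue); all panels span the same range of log2 units, circles are the brightest tested probe of a gene, and squares and triangles its other probes. The brightest probe lay higher on both Bmp2b arrays for tbx3a and tbx2a and lower on both for tbx5a, while the tbx20 values of the groups overlapped.

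tbx3a, for a repressor of the conduction system and the canal, rose most. Its brightest probe (A_15_P154166) read 9.61 and 10.13 on the Bmp2b arrays and 7.74 and 7.69 on the WT arrays. Both Bmp2b values lay above both WT values, as they did for 34.9% of all genes. The Bmp2b arrays differed from each other by 0.515. The log2 fold change was 2.16 ± 0.21 (SE, n = 2 arrays each), or 4.46-fold higher, with a limma adjusted p of 0.0204, and the gene ranked 54 of 11376 by the size of its rise. With the WT mean as 1 sample the adjusted p was 0.230, and 0.0625 with the intensity-dependent prior.

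The rise of tbx3a was seen on array 1 only after the arrays had been brought to 1 scale. Its raw signal was 246 and 1042 on the Bmp2b arrays against 295.5 and 268 in WT, so the raw value on Bmp2b array 1 lay below both WT values. Divided by its array's 75th percentile, the raw value was 2.63 and 4.17 on the Bmp2b arrays and 0.664 and 0.632 on the WT arrays. The log2 fold change lay between 1.90 and 2.79 under all 17 alternatives tried. Scaling to the 75th percentile moved the median of all probes tested to 0.28 and gave tbx3a 2.11 (adjusted p = 0.0505).

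The other probes of tbx3a were dim and were not tested. Probe A_15_P110542 had raw intensities of 36.5 and 84 on the Bmp2b arrays and 30.5 and 30 on the WT arrays, and A_15_P156131 had 27 and 61 against 19 and 23. Each lay above background on Bmp2b array 2 alone. The groups overlapped for A_15_P156131 in normalized values, and no fold is read from either probe, since Bmp2b array 1 did not measure it. Without the filter on dim probes neither passed (limma adjusted p = 0.180 for A_15_P110542 and 0.531 for A_15_P156131). The tbx3a call thus rests on 1 of its 3 probes.

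tbx2a, for a repressor closely related to tbx2b, was also higher. Its brightest probe (A_15_P193602) read 7.87 and 7.79 on the Bmp2b arrays and 6.62 and 6.73 on the WT arrays. The groups did not overlap, and neither pair of arrays differed by more than 0.111. The log2 fold change was 1.16 ± 0.12 (SE, n = 2 arrays each), or 2.23-fold higher, with a limma adjusted p of 0.0204, which became 0.312 with the WT mean as 1 sample. Over all genes the groups did not overlap for 68.6%, with Bmp2b higher for 34.9% and lower for 33.8%. Raw intensities were 75 and 175 on the Bmp2b arrays and 86 and 94 on the WT arrays, close to the background of 50 and 48 on the Bmp2b arrays and 33 and 32 on the WT arrays. On Bmp2b array 1 no probe above background had a normalized value below 7.16. That is above both WT values of this probe, so a reading above background there could only come out higher. In the authors' processed table, where a background had been taken off, the probe read 44.8 and 130 on the Bmp2b arrays against 59.3 and 63.9 in WT. From those intensities, quantile-normalized, the log2 fold change was 2.21 (adjusted p = 0.0291).

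The second tbx2a probe did not show a rise of that size. A_15_P108657 read 7.00 and 6.68 on the Bmp2b arrays and 6.60 and 6.62 on the WT arrays. The probe was above background on 1 of 2 Bmp2b arrays and on both WT arrays, and its log2 fold change was 0.23 (limma adjusted p = 0.344; 95% interval -0.19 to 0.66). The mean of both probes gave 0.70 (limma adjusted p = 0.0428). In WT alone the 2 probes were about equally bright, with means of 6.67 for A_15_P193602 and 6.61 for A_15_P108657. In the authors' processed table A_15_P108657 was the brighter in WT, at 76.8 and 70.5. The call by the brightest probe thus rests on 1 of 2 dim tbx2a probes. Where on the transcript the probes lie is not given in the sources used here.

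tbx2b, the paralogue that is required for the atrioventricular canal in zebrafish, was bright and moved little. Its brightest probe (A_15_P107789) read 12.07 and 12.35 on the Bmp2b arrays and 12.01 and 12.03 on the WT arrays. Both Bmp2b values were the higher ones, but Bmp2b array 1 lay 0.06 above the WT mean and Bmp2b array 2 lay 0.34 above it. The log2 fold change was 0.20 ± 0.14 (SE), which did not pass (limma adjusted p = 0.388), with a 95% interval of -0.20 to 0.60. The second probe (A_15_P141716) went the other way, at 11.13 and 11.31 on the Bmp2b arrays and 11.58 and 11.56 on the WT arrays. Its log2 fold change was -0.35 (adjusted p = 0.130; 95% interval -0.70 to -0.01). The probes thus had opposite signs, and the mean over both was -0.078 (adjusted p = 0.698). With scaling to the 75th percentile the first probe also turned, to -0.093.

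By their brightest probes, the paralogues tbx2a and tbx2b had different values under the same ligand, although the difference between their fold changes was not tested. The 95% interval of the brightest tbx2a probe was 0.84 to 1.48, and that of the brightest tbx2b probe was -0.20 to 0.60. The second probes of the paralogues, with intervals of -0.19 to 0.66 and -0.70 to -0.01, overlapped. The second tbx2a probe, with a log2 fold change of 0.23, also lay close to the brightest tbx2b probe, at 0.20. Raw intensity of tbx2b was 1461 and 4856 on the Bmp2b arrays and 7250 and 7254 on the WT arrays, so this gene was far above background on all arrays and its precision is not limited by dimness.

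**Figure D2:**
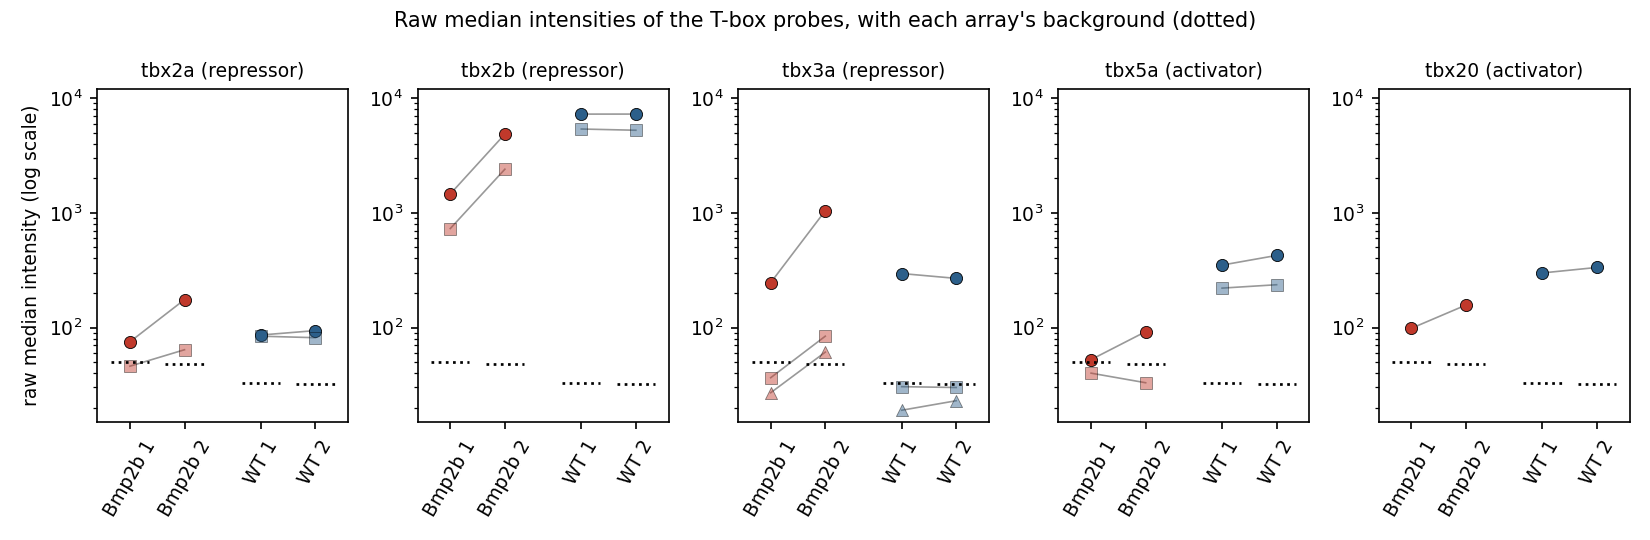
Raw median intensity (log scale) of the same 10 probes on the Bmp2b arrays (red) and the WT arrays (blue), with markers as for the normalized values and a dotted line at each array's background. tbx2b was far above background on all 4 arrays, while both tbx5a probes were close to or below it on Bmp2b array 1, and the brightest probes of tbx3a and tbx2a exceeded WT in raw intensity on Bmp2b array 2 alone.

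tbx5a, the activator mutated in the zebrafish heartstrings line and the relative of the human Holt-Oram gene, fell. Its brightest probe (A_15_P156126) read 7.26 and 7.07 on the Bmp2b arrays and 7.93 and 8.22 on the WT arrays. Both Bmp2b values lay below both WT values, as they did for 33.8% of all genes. The log2 fold change was -0.91 ± 0.16 (SE, n = 2 arrays each), or 1.88-fold lower, with a limma adjusted p of 0.0386, and 5.85% of genes had a lower value. The raw intensity was 52.5 and 92 on the Bmp2b arrays, where background was 50 and 48, against 350 and 425 in WT, so the Bmp2b value of array 1 was barely above background.

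The second tbx5a probe (A_15_P113468) was lower too and was below background on both Bmp2b arrays. It read 6.69 and 6.03 on the Bmp2b arrays and 7.44 and 7.56 on the WT arrays, with raw intensities of 40 and 33 against 220.5 and 236. Set against the lowest value of each Bmp2b array's probes above background, it was at least 1.64-fold lower in Bmp2b hearts. The test used the values as read, with a log2 fold change of -1.14, which did not pass (limma adjusted p = 0.0594). Both tbx5a probes kept a negative log2 fold change under every alternative tried. The call of the brightest probe was lost, however, with cyclic loess (-0.81, adjusted p = 0.0623), with the processed intensities (-1.12, adjusted p = 0.0715), without the filter on dim probes (adjusted p = 0.0505) and with scaling to the 75th percentile (-0.73, adjusted p = 0.170). In that last scaling the value relative to the median of all probes was -1.01. With the WT mean as 1 sample its adjusted p was 0.378.

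tbx20, for an activator that in mouse also restrains Tbx2, had a single probe (A_15_P110365). It read 8.29 and 7.67 on the Bmp2b arrays and 7.76 and 7.93 on the WT arrays. The WT values lay between the Bmp2b values, so the groups overlapped. The log2 fold change was 0.13 ± 0.25 (SE), which did not pass (limma adjusted p = 0.733), with a 95% interval of -0.56 to 0.82. The arrays of Bmp2b differed by 0.62, more than for 81.6% of the probes tested. The value was 0.44 without Bmp2b array 2 and -0.18 without Bmp2b array 1, so 1 array sets its sign.

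Set side by side by role, with the brightest probe for each gene, the repressors averaged 1.05 and 1.29 log2 units above the WT mean on the Bmp2b arrays. On the WT arrays they averaged -0.01 and 0.01. The activators averaged -0.19 and -0.59 on the Bmp2b arrays and -0.11 and 0.11 on the WT arrays. The repressors thus exceeded the activators by 1.24 and 1.88 on the Bmp2b arrays, against 0.10 and -0.10 in WT. This is a description of 5 genes with no test. The second tested probes of tbx2a (log2 fold change 0.23), tbx2b (-0.35) and tbx5a (-1.14) did not enter these means. tbx2b was the repressor and tbx20 the activator that did not follow the mean of its class, with log2 fold changes of 0.20 and 0.13. The genes tbx3a and tbx5a, which moved in opposite directions, are neighbours on 1 chromosome in the assembly GRCz12tu, with 0 protein-coding genes between them.

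**Figure D3:**
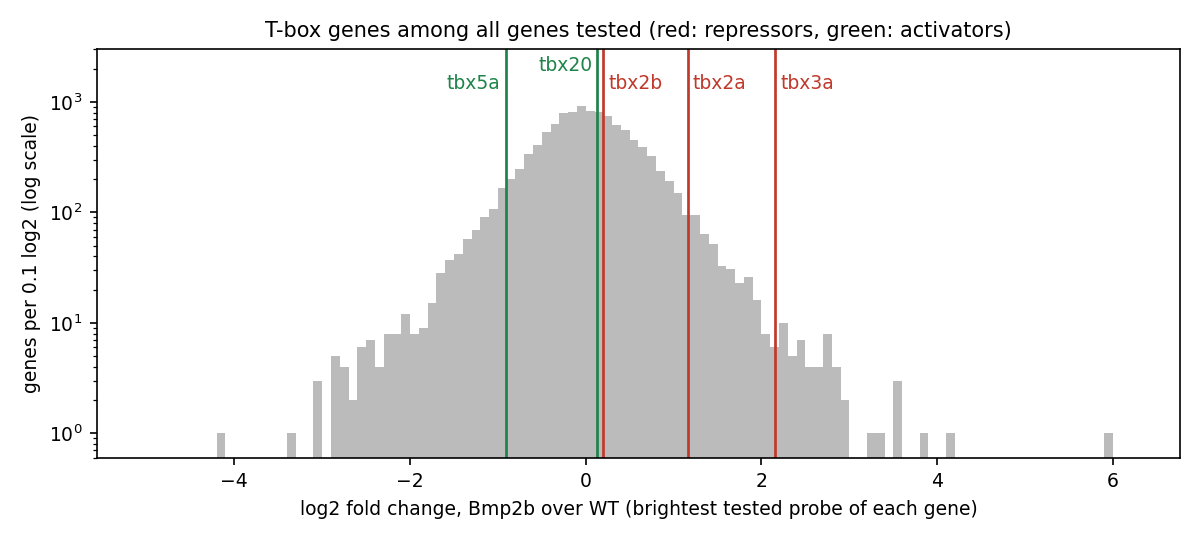
Log2 fold changes (Bmp2b over WT) of all 11376 genes tested, on a log count axis, with the repressors (red lines) and the activators (green lines) marked. tbx3a, at 2.16, and tbx2a, at 1.16, stood in the upper tail, tbx5a, at -0.91, in the lower tail, and tbx2b and tbx20 near the centre.

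The rest of the T-box family on the array was mostly dim. Of 17 other T-box genes with a probe, 10 were tested, and tbx15 fell while 9 did not pass and 0 rose. The 10 had a median log2 fold change of 0.05, against 0.01 for all genes, of which 8.22% were called lower. tbx15, for a factor of skeleton and muscle in mouse, read 6.62 and 6.46 on the Bmp2b arrays and 7.14 and 7.21 on the WT arrays (limma adjusted p = 0.0452). It was above background on 1 of 2 Bmp2b arrays, so the size of its fall was not measured on both, and its adjusted p was 0.505 with the WT mean as 1 sample and the intensity-dependent prior. For the tbx5a paralogue tbx5b the value was -0.38 (adjusted p = 0.0990). tbx1, for a factor of pharyngeal and outflow precursors, had one of 0.24 (adjusted p = 0.347), and its second probe was below background on both Bmp2b arrays. Probes of tbx3b, tbx4, tbx18, tbx21 and tbr1a were below background on all 4 arrays.

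Of 12 genes upstream of T-box genes or in feedback with BMP signalling, 5 rose, 1 fell and 6 did not pass (median 0.32). Among all genes, 9% were called higher and 8.22% lower. bmp2b itself was 60.2-fold higher, and it is the transgene product. Also higher were aldh1a2, for a retinoic acid synthesis enzyme, by 2.37 on the log2 scale, raraa, for a retinoic acid receptor, by 1.41, bmp6, for another BMP ligand, by 1.11, and smad1, for a BMP signal transducer, by 0.80. Other probes of raraa, at 0.65, and of smad1, at -0.19 and -0.01, did not pass. id1, for an inhibitor of helix-loop-helix factors, fell by 1.40. foxn4, for a factor that switches on tbx2b in the zebrafish canal, read 7.20 and 8.24 on the Bmp2b arrays and 7.09 and 7.06 on the WT arrays (log2 fold change 0.64, limma adjusted p = 0.296). The foxn4 level of Bmp2b array 2 was the higher one, as it was for tbx2b and for 5769 of all 11376 genes. A link between foxn4 and tbx2b was not tested.

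Of 14 genes for cofactors of T-box proteins, mef2ca fell, sall4 rose and 12 did not pass (median 0.27). This count stands against 17.2% of all genes called in either direction. mef2ca, for a myocardial factor, had a log2 fold change of -1.96 ± 0.19 (SE; limma adjusted p = 0.0204), and all 4 of its probes fell. sall4, for a zinc finger factor that interacts with Tbx5 in mouse, had 1.08, but another of its probes, above background on 1 of 2 Bmp2b arrays, was lower (adjusted p = 0.0283). Among the partners that did not pass, the log2 fold change was -0.25 for nkx2.5 (adjusted p = 0.300), 0.50 for gata5 (0.332), -0.13 for gata6 (0.453) and 1.17 for gata4 (0.0761).

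Genes of the working chambers went both ways, where 9% of all genes were called higher and 8.22% lower. Of 23 chamber genes tested, 3 rose, 6 fell and 14 did not pass. Their median was -0.22, with -0.15 on Bmp2b array 1 and -0.32 on Bmp2b array 2. Those that rose include nppa, a target of both the activators and the repressors in mouse. It read 9.70 and 9.32 on the Bmp2b arrays and 8.01 and 8.07 on the WT arrays (log2 fold change 1.47 ± 0.17, SE; limma adjusted p = 0.0231), and its other probes rose by 0.70 and 0.71. The related peptide gene nppb rose by 1.53 and the atrial myosin gene myh6 by 1.94. So nppa was higher in the same hearts in which tbx3a and tbx2a were higher and tbx5a was lower. Among the genes that fell were irx4a, for a ventricular factor, by 1.60, casq2, for a calcium store protein, by 1.39, and ttn.2, for titin, by 0.82. A second casq2 probe, at 0.72, did not pass, and of the 9 other ttn.2 probes 2 passed, both downward, of which 1 was below background on both Bmp2b arrays. For hey2, a ventricular repressor that keeps Tbx2 out of the chambers in mouse, the value was 0.03 (adjusted p = 0.949).

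Over all genes, 9% were called higher and 8.22% lower (median 0.01). Genes of the atrioventricular canal were higher in 4 of 17 cases, lower in 0, and 13 did not pass (median 0.34). The 4 were the homeobox genes msx1b (5.64-fold), msx2b (5.14-fold) and msx3 (4.41-fold) and the fibronectin gene fn1b (4.76-fold). Which cells gave these rises, and whether they were canal cells, was not tested. Other fn1b probes did not follow, with 1 at a log2 fold change of 0.36 that did not pass and 1 below background on all arrays. The canal genes bmp4 and has2, for a ligand and for the hyaluronan synthase of the cushions, stood at -0.39 and 0.02 on the log2 scale (limma adjusted p = 0.385 and 0.936), and notch1b, for a receptor of the canal endocardium, had -0.29 (adjusted p = 0.250).

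**Figure D4:**
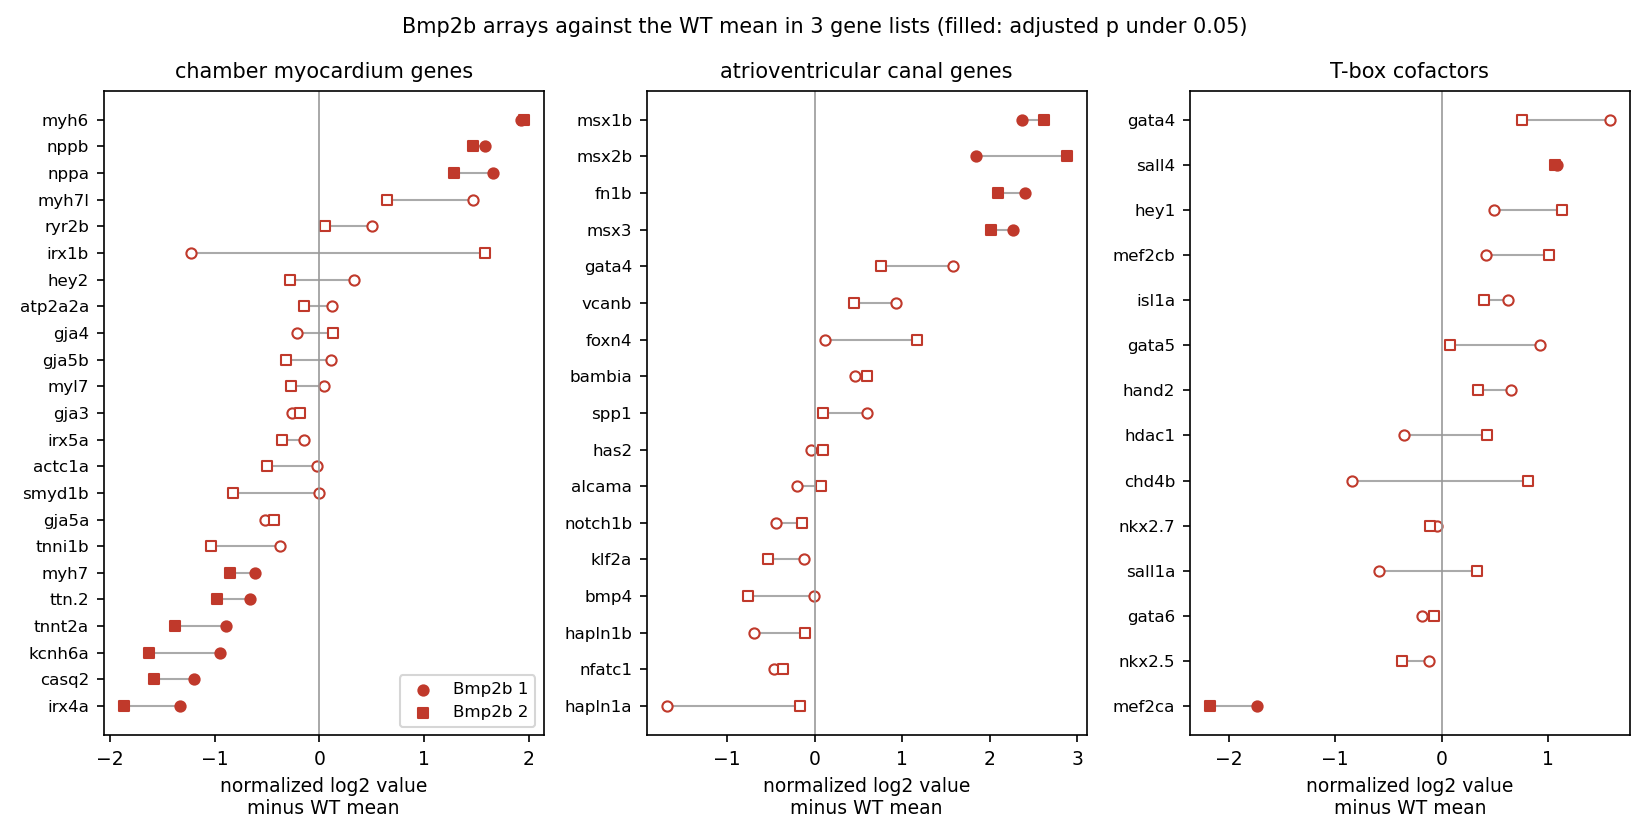
Each Bmp2b array's normalized log2 value minus the WT mean for genes of the chambers, of the atrioventricular canal and for T-box cofactors; circles are Bmp2b array 1, squares Bmp2b array 2, and filled symbols mark an adjusted p under 0.05. nppa and myh6 lay above the WT mean on both arrays and irx4a and mef2ca below it on both. Of the canal genes without a call, has2 and alcama had log2 fold changes near 0, at 0.02 and -0.06. The others lay on either side, with log2 fold changes from -0.93 for hapln1a to 1.17 for gata4.

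Markers of other tissues were present in these hearts and differed between the Bmp2b arrays. The counts of called markers stand beside 9% of all genes called higher and 8.22% called lower. T-box genes are also used outside the heart, tbx2b in the retina, pineal organ and ear, and tbx5a in the retina and the pectoral fin field. Heart muscle markers had a summed level of 901200 and 663400 on the Bmp2b arrays and 1138000 and 1034000 on the WT arrays (normalized intensity, 12 of 13 tested, 2 higher and 3 lower), with myl4 below background. myl7, the pan-cardiac myosin light chain, read 17.19 and 16.87 on the Bmp2b arrays and 17.31 and 16.98 on the WT arrays, so all pools held heart muscle.

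The summed level of 16 neural markers was 31080 and 42130 on the Bmp2b arrays and 30080 and 31120 in WT, with 0 called and medians against WT of -0.70 on Bmp2b array 1 and 0.85 on array 2. The neuronal gene elavl3 read 7.67 and 11.31 on the Bmp2b arrays and 9.91 and 9.99 in WT. For 11 eye markers the sums were 4208 and 6209 in Bmp2b and 3520 and 3534 in WT, with rx1 and mab21l2 higher, and vsx1 and vax2 below background. For 12 epidermal markers they were 271000 and 294600 against 126600 and 130200, with icn and krt8 higher. Medians of the epidermal list against WT were 0.03 on Bmp2b array 1 and 1.81 on array 2. For 7 ear and pineal markers they were 1378 and 5323 against 1452 and 1457, with crx lower (above background on 1 of 2 Bmp2b arrays), and aanat2 and exorh below background.

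Bmp2b array 2 thus held more of these markers than Bmp2b array 1, and it was also the array with the higher tbx3a and tbx2b levels and the lower tbx2a, tbx5a and tbx20 levels (brightest probes). Their part in the results was not tested. Without Bmp2b array 2 the log2 fold change was 1.90 for tbx3a, 1.20 for tbx2a and -0.82 for tbx5a, and without Bmp2b array 1 it was 2.41, 1.12 and -1.00. Each Bmp2b array alone thus gave the same sign for these 3 genes. For tbx2a the sign on Bmp2b array 1 carries little. No probe above background read below 7.16 there, which is above both tbx2a WT values (6.62 and 6.73). Both Bmp2b arrays had higher summed levels than both WT arrays for the eye and epidermal markers, but bright genes weigh most in such sums. krt8 read 17.81 and 17.45 on the Bmp2b arrays and 16.53 and 16.57 in WT, and mab21l2 11.19 and 11.05 against 10.51 and 10.53. The median of the eye list against WT was -0.22 on Bmp2b array 1 and 0.56 on array 2. For the epidermal list it was 0.03 and 1.81.

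Beside the counts in this paragraph stand 9% of all genes called higher and 8.22% called lower. Markers of the pericardium and mesothelium were higher on both Bmp2b arrays, with 6 of 9 higher, 0 lower and summed levels of 93220 and 68590 against 33090 and 34320 in WT. They included aldh1a2, sfrp5, a Wnt antagonist gene (log2 fold change 2.85), tgm2b (1.33) and cav1, for a caveola protein (1.52). Also among the 6 were krt18a.1, a simple keratin gene (1.71), and jam2b (1.44), while wt1a, lamc3 and tbx18 were below background. Other probes of tgm2b, at 0.31, and of cav1, at 0.38 and 0.46, did not pass. For 9 markers of the lateral mesoderm and pectoral fin field, where tbx5a is also used, the sums were 35420 and 29550 against 23950 and 24150. Of these markers aldh1a2 and osr1 were higher, snai1a was lower and wt1a was below background. Most of each sum came from hand2, also in the cofactor list, at 14.88 and 14.56 against 14.22 and 14.23 in WT. It did not pass (limma adjusted p = 0.102). The fin field ligand genes fgf24 and fgf10a stood at 0.28 and -0.05 on the log2 scale (limma adjusted p = 0.497 and 0.878). Endothelial markers had sums of 101600 and 72230 against 95200 and 97540 (3 of 12 lower, 0 higher). The 3 were lmo2 and tal1, for factors of blood and vessel precursors, which were 2.14-fold and 1.92-fold lower, and sox18, which no Bmp2b array measured above background and which was at least 1.27-fold lower. Blood markers had 19800 and 13840 against 12920 and 13260 (0 of 10 called). Skeletal muscle markers had 82120 and 65880 against 151900 and 120000 (1 of 12 lower, acta1b). Most of these sums came from the bright actin genes acta1b and actc1b, and a second acta1b probe, at -0.46, did not pass. The skeletal muscle list had 8 of 12 log2 fold changes above 0, with medians against WT of -0.10 on Bmp2b array 1 and 0.27 on array 2. Endoderm and yolk markers had 42400 and 28440 against 22030 and 24780 (0 of 10 called). Most of the endoderm and yolk sums came from gata5, also a T-box partner, at 15.32 and 14.47 against 14.30 and 14.49 in WT. The medians of that list against WT were -0.26 on Bmp2b array 1 and 1.00 on array 2. The part of these tissues in the T-box values was not tested.

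The genes whose profile over the 4 arrays lay nearest to each T-box gene were sought among 10617 named genes, by Euclidean distance of log2 values minus their own mean. For tbx3a these were dkk1b, for a secreted Wnt inhibitor (distance 0.173), dnaaf4, for a dynein assembly factor (0.207), and slc16a9b, for a transporter (0.271). dkk1b read 8.77 and 9.23 on the Bmp2b arrays and 6.67 and 6.76 on the WT arrays. The profile of tbx3a was the least shared, with 1 gene within a distance of 0.2, against 99 for tbx2a, 667 for tbx2b, 49 for tbx5a and 290 for tbx20. Nearest to tbx2a were sybl1, apbb1ip and cradd, and nearest to tbx5a were snx18a, chmp3 and bbox1. Nearest to tbx2b were adarb1a, eif4e2rs1 and haus1, and nearest to tbx20 were gramd4b, sdc2 and rtn2b. With 4 arrays in 2 groups, such likeness mostly repeats the fold change and the gap between the Bmp2b arrays.

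**Figure D5:**
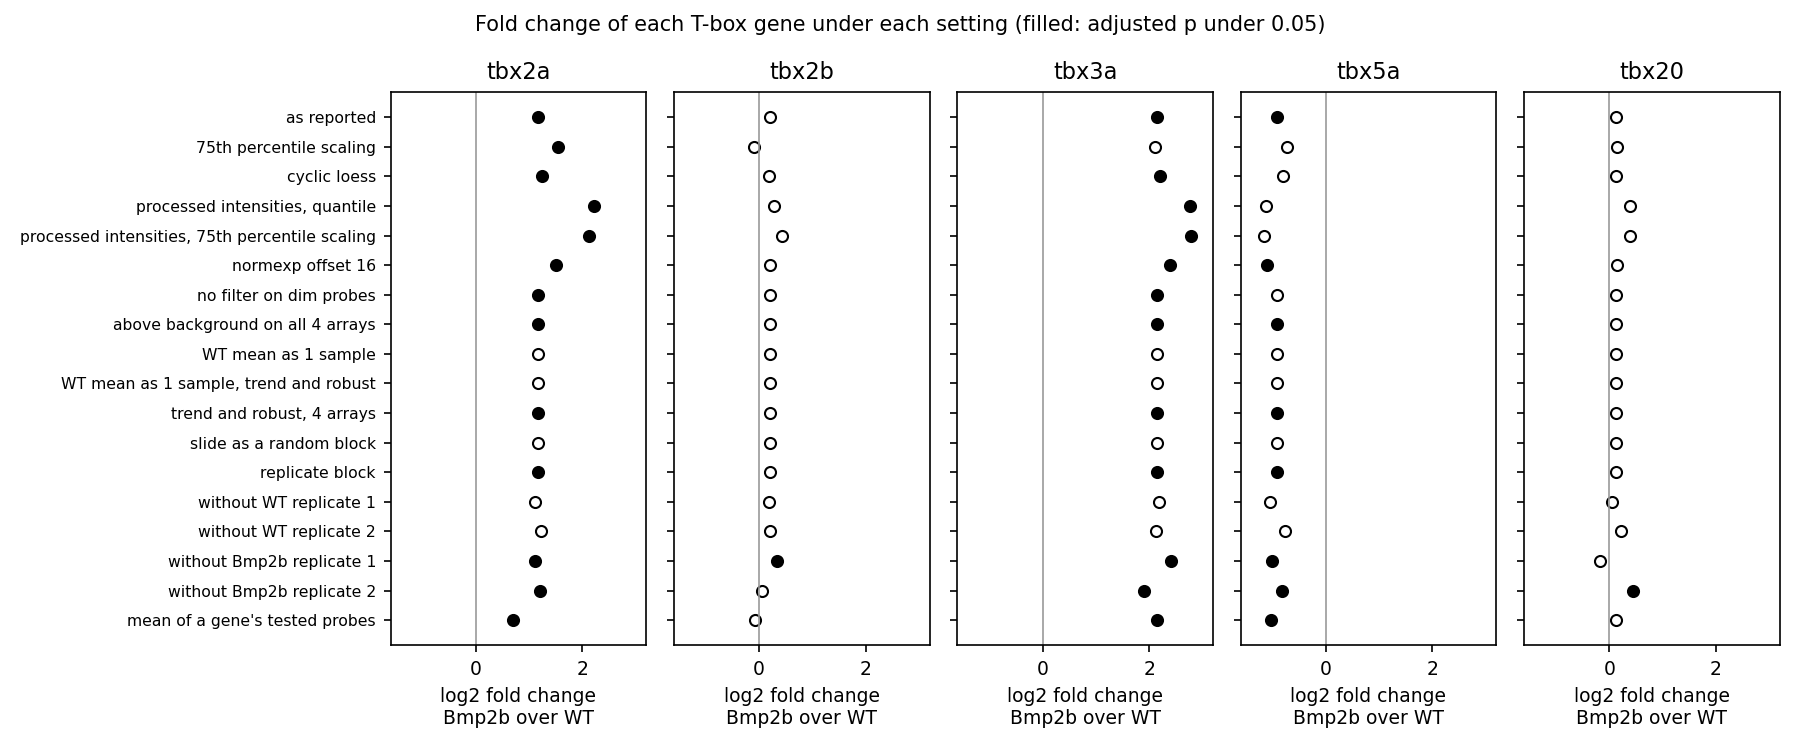
Log2 fold change (Bmp2b over WT) of the brightest probe of each T-box gene as reported and under each of 17 alternative settings; filled circles have an adjusted p under 0.05. tbx3a and tbx2a stayed above 0 and tbx5a below 0 in every setting, though all 3 lost the call with the WT mean as 1 sample, with slide as a block and without either WT array. Each of these fits passed hardly any probe of the whole array.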

How the data were processed

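Pooled embryonic hearts were measured on 4 single-colour arrays. Per the submitters' processing notes, Agilent Feature Extraction (version not given) read the images. The authors deposited raw median intensities per spot (43803 spots), per the file headers, and a table of processed intensities, used as an alternative; how its background was taken off is not given in the sources used here. Raw intensities were corrected by normexp (offset 50), log2-transformed and quantile-normalized, and spots of a probe were averaged. Probes above background (2 times the array's 5th percentile) on at least 2 of 4 arrays were tested with limma 3.58.1 (lmFit, eBayes, two-sided) in R 4.3.3, after a check of the script on simulated data. The simulated arrays were independent and had the same spread in both groups, so the check does not cover the unequal spread of the real arrays. The platform annotation named 23667 probes; 0 symbols changed through the current gene table. Saturation could not be checked, and 4 arrays limit the precision. The labels number the arrays alike in both groups, but deviations of same-numbered arrays correlated at only r = 0.0935, so no pairing was used.

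All probes of the 5 genes were named, with up to 6 called genes (smallest p first) of each list of T-box, chamber, canal, cofactor and upstream genes, and 3 nearest genes each. Further genes of these lists and all genes named from the marker lists were chosen after their values were seen. Members and lists were chosen with earlier results of these data known.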

Additional observations from a re-analysis of the deposited data

How the results depend on the processing

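The log2 fold changes of tbx3a and tbx2a kept their sign under all 17 alternatives, and passed under 11 and 12 of them. tbx5a kept its sign under all 17 and passed under 7. The brightest tbx2b probe turned to -0.093 with scaling to the 75th percentile and to -0.078 with the mean over probes, and tbx20 lay between -0.18 without Bmp2b replicate 1 and 0.44 without Bmp2b replicate 2; for tbx2b and tbx20 the values had not passed. The count of called T-box genes (3) was 2, without tbx5a, under cyclic loess, with the processed intensities in both scalings and without the filter on dim probes. It was 1 where arrays were scaled to their 75th percentile, 0 with the WT mean as 1 sample with or without the intensity-dependent prior, and 0 with slide as a random block. It ranged from 0 to 4 when 1 array was left out: 0 without either WT array, and 4 without either Bmp2b array, where tbx2b (without Bmp2b replicate 1) or tbx20 (without Bmp2b replicate 2) was added and the spread is that of the WT arrays alone.

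Over all probes, 3876 were called, 1668 higher and 2208 lower. Scaling to the 75th percentile gave 871 (493 higher and 378 lower, so 56.6% higher against 43.0%), and 75th percentile scaling of the processed intensities gave 2041. The WT mean as 1 sample gave 1, or 189 with the intensity-dependent prior, and slide as a random block gave 1. With 1 array left out the count ranged from 1 to 17027. When a probe had to exceed background on all 4 arrays, 52.4% of calls were higher. The replicate block, a pairing by number that the labels do not explain, gave 3056 probes and the same 3 T-box genes in number. Dimness limits tbx5a and tbx2a, whose raw values on Bmp2b array 1 were 52.5 and 75 at a background of 50.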
